A study of Mus musculus with 6 samples.

Results

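The insulin-like growth factor (IGF) genes of gonadal white adipose tissue (gWAT) were followed through a high-fat diet. They comprise 9 of the 19790 genes counted: the ligands *Igf1* and *Igf2*, the receptor *Igf1r*, and the binding proteins *Igfbp2* to *Igfbp7*. They were chosen by name, by matching NCBI gene identifiers in the count table to these symbols, and all 9 were found. RNA was sequenced from whole gWAT, the fat pad beside the male reproductive organs, of wild-type C57BL/6 male mice. A normal chow diet (NCD) was given to 3 of them and a high-fat diet (HFD) to the other 3, and feeding lasted 8 weeks. The sample labels put the start of the diet at 6 weeks of age, whereas the methods give 8 weeks. The labels name no engineered allele and no other agent, so diet is the only labelled difference.

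IGF1 and IGF2 are small secreted growth factors that signal through the IGF1 receptor, a tyrosine kinase related to the insulin receptor. IGF binding proteins (IGFBPs) hold the ligands in the extracellular space and in blood, prolonging their life and limiting or directing their access to the receptor. Most circulating IGF1 comes from the liver under growth hormone, but adipose tissue also makes it, and IGF signalling takes part in the growth and differentiation of fat cell precursors.

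RNA from outside the fat pad was abundant in a library. Genes of seminal vesicle secretion, 11 in all, took 58.6%, 11.2% and 2.30% of the counts of NCD replicates 1, 2 and 3 and between 2 and 8 counts in each HFD library. NCD replicate 1 was also the library with the least of 7 adipocyte markers (*Adipoq*, *Plin1*, *Cidec*, *Lipe*, *Fabp4*, *Pparg* and *Cd36*), at 0.198% of its counts against 1.63–2.38% in the other 5. Fold changes are therefore given with all 6 mice and with 5, leaving NCD replicate 1 out. NCD replicates 2 and 3 keep some seminal vesicle RNA in that second comparison. Levels are CPM, counts relative to the library's total, after scaling by the trimmed mean of M values (TMM-scaled CPM). Libraries held 49575113–66360046 counts, and the IGF genes between 37 and 33747 counts each. A change in bulk tissue can reflect fewer cells of a type or less RNA per cell, and these cannot be told apart.

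Stretches before a transcript start of *Igf1* and of *Igfbp2* are shown because these genes carried the clearest diet differences in ratio to the adipocyte markers. Each is the 250 bases before the start of a RefSeq transcript (assembly GRCm38.p6, plus strand, 5′ to 3′), *Igf1* at chr10:87860861-87861110 and *Igfbp2*, the first of 2 windows, at chr1:72824230-72824479. The *Igf1* window lies inside the annotated gene (chr10:87858265-87937047), so it precedes an internal start and not the outermost one. The *Igfbp2* window ends just before its gene. Capitals mark GGGCGG, the core of the GC box, searched on both strands along with TATAAA and TTCNNNGAA, the core bound by STAT factors.

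Igf1: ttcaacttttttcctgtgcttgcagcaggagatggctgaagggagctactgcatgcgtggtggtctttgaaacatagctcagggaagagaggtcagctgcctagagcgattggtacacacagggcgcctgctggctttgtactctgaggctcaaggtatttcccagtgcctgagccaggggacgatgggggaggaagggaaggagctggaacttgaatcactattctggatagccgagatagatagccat
Igfbp2: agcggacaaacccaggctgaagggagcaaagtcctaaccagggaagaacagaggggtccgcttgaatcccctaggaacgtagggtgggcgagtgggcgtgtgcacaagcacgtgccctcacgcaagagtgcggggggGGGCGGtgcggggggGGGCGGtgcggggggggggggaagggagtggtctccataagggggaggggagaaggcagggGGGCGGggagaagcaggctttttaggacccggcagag

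The *Igf1* stretch is 52.8% G and C with 5 CG dinucleotides, and it holds none of the 3 motifs. The *Igfbp2* stretch is richer, with 67.2% G and C, 14 CG dinucleotides and GGGCGG at 113, 98 and 37 bases before the start. Over 13 such windows of the 9 genes, GGGCGG occurred in 5, against 32.7% of 32851 windows of the same length, and TATAAA in 2, against 12.4%. TTCNNNGAA occurred in 0 of 13, against 7.02% of all windows. No motif overlapped another in the windows of the IGF genes. These matches describe the letters of the windows only, and counts per gene do not show which start was used.

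With all 6 mice, none of the 9 IGF genes passed the threshold (edgeR quasi-likelihood test, Benjamini-Hochberg adjusted p under 0.05), beside 7.47% of the 15241 genes tested (5.58% higher and 1.90% lower on HFD). At an unadjusted p under 0.05 there were 2, *Igf2* and *Igfbp2*, beside 4524 of the 15241 genes, so the IGF genes did not exceed the background. DESeq2 called 1, *Igfbp2*, beside 3853 of 19056 genes, and limma called 0, beside 1167 of 15241. Without NCD replicate 1, *Igf1*, *Igf2* and *Igfbp2* fell, 3 of 9, and 0 rose, while 20.9% of 15510 genes passed, 10.1% by falling. The median log2 fold change of the 9 genes was −0.63 in the 6-mouse comparison, against −0.08 over all genes tested, and −0.49 in the 5-mouse one, against 0.02. In both, 6 of the 9 fold changes were negative, beside 8376 of 15241 genes with 6 mice and 7571 of 15510 with 5.

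**Figure D1:**
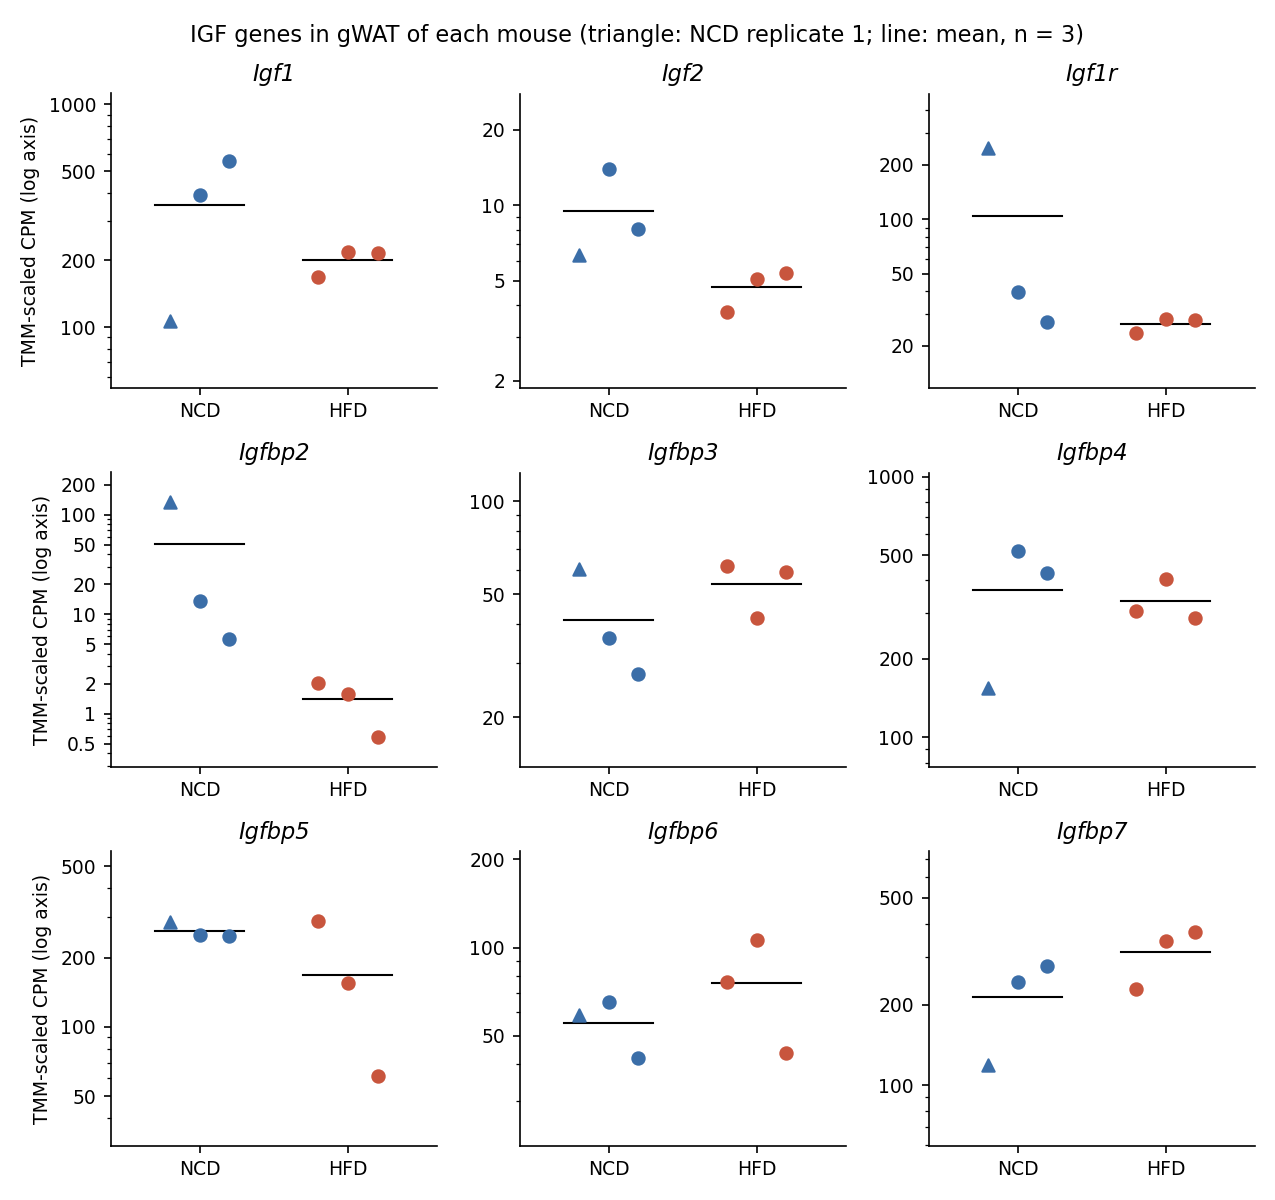
TMM-scaled CPM of each IGF gene (log axis, its own range in each panel) in every mouse, with blue for NCD, red for HFD, a triangle for NCD replicate 1 and a line at the mean of 3. The triangle lies apart from the other NCD mice for Igf1, Igf1r, Igfbp2 and Igfbp4, and by less for Igfbp3 and Igfbp7. HFD lies wholly below NCD for Igf2 and Igfbp2.

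*Igf1*, the ligand that mediates much of the growth-promoting action of growth hormone, had levels of 107, 393 and 560 TMM-scaled CPM in the NCD mice (replicates 1, 2 and 3, the order used throughout). The HFD mice had 168, 217 and 215. The HFD mice lay close together, between NCD replicate 1 and the other NCD mice, so the diets overlapped. The means were 353 ± 229 (SD, n = 3) on NCD and 200.1 ± 27.4 (SD, n = 3) on HFD, and the log2 fold change of −0.82 (SE 0.565) did not pass (edgeR adjusted p = 0.368). Without NCD replicate 1 *Igf1* was 2.36-fold lower on HFD (log2 fold change −1.24, SE 0.218, edgeR adjusted p = 0.0172). That call was lost when NCD replicate 2 (−1.48, adjusted p = 0.0505), NCD replicate 3 (−0.95, adjusted p = 0.104) or HFD replicate 2 (−1.30, adjusted p = 0.0505) was left out as well, although the direction held in each of these edgeR fits.

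Set against the summed adipocyte markers of the same library, *Igf1* was even across the NCD mice, including replicate 1. It had 26.8, 24.1 and 25.2 counts per 1000 counts of the 7 markers on NCD, and 10.3, 13.4 and 16.7 on HFD. Every HFD mouse lay below every NCD mouse, with means of 13.5 ± 3.19 and 25.4 ± 1.37 (SD, n = 3 each). The mean log2 ratio differed by −0.94 (HFD minus NCD), and between −1.11 and −0.76 with each mouse left out in turn. By exact two-sided permutation p was 0.1, which no design of 3 against 3 mice can go below. In this ratio 2 of the 9 IGF genes separated the diets, *Igf1* and *Igfbp2*, both lower on HFD, beside 11.0% of all genes tested that were lower and 16.7% in either direction. This ratio was chosen after the levels had been seen. Its sum is weighted towards *Fabp4* and *Cd36*, the markers with the most counts in every library (378854 and 280401 of 944952 in HFD replicate 1). In ratio to *Plin1*, *Cidec*, *Lipe* or *Pparg* alone, *Igf1* overlapped between the diets. For *Plin1*, HFD replicate 3 had 13487 counts of *Igf1* to 26646, and NCD replicate 2 had 23531 to 77049.

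The adipocyte markers themselves had 0 of 7 calls with 6 mice, and 3 of 7 were lower (*Plin1*, *Lipe* and *Pparg*) with 5 mice. Their sum was 3996, 16340 and 22183 TMM-scaled CPM on NCD and 16376, 16127 and 12898 on HFD. Against 7 stromal progenitor markers the log2 ratio of *Igf1* differed by −1.11 but the diets overlapped (exact permutation p = 0.2), and against 5 endothelial markers it differed by −1.41 with no overlap (exact permutation p = 0.1). Of the 9 IGF genes, 3 separated the diets in the stromal ratio (*Igf2*, *Igf1r* and *Igfbp2*) and 6 in the endothelial ratio, all lower on HFD, beside 39.9% and 49.3% of all genes that were lower (47.2% and 54.2% in either direction). Macrophage markers, another possible source of *Igf1* transcripts in fat, summed to 356, 858 and 798 TMM-scaled CPM on NCD and 3375, 2163 and 2710 on HFD. Of these 7 genes, 3 rose with 6 mice and 7 with 5 mice. The part of any of these cell types in the *Igf1* level was not tested.

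**Figure D2:**
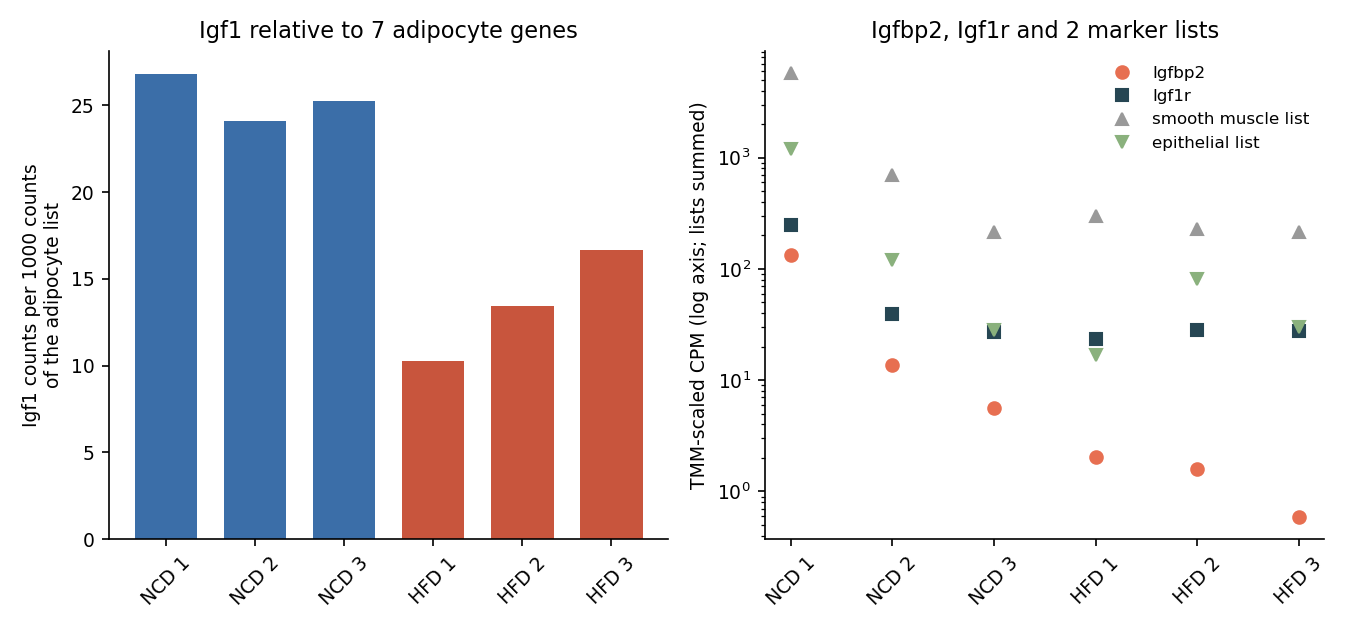
Left, Igf1 counts per 1000 counts of 7 adipocyte markers in each mouse, as bars from 0. Right, TMM-scaled CPM (log axis) of Igfbp2 and Igf1r with the summed smooth muscle and epithelial markers. The NCD bars stand at 24.1–26.8 and the HFD bars at 10.3–16.7, and in the right panel all 4 series are highest in NCD replicate 1.

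*Igf2*, the imprinted fetal growth factor, was expressed at a low level in every mouse. It had 6.36, 13.9 and 8.07 TMM-scaled CPM on NCD and 3.76, 5.10 and 5.37 on HFD, and the diets did not overlap. Such separation, in either direction, was seen in 39.2% of all genes tested, and 18.7% were lower on HFD. The means were 9.45 ± 3.96 and 4.75 ± 0.863 (SD, n = 3 each). The log2 fold change of −0.99 (SE 0.353) did not pass with 6 mice (edgeR adjusted p = 0.128), whereas with 5 mice *Igf2* was 2.29-fold lower (log2 fold change −1.19, SE 0.297, edgeR adjusted p = 0.0418). That call did not survive the loss of any further mouse (−1.53 to −0.76, edgeR adjusted p between 0.0597 and 0.204), nor scaling by total counts (−0.97, edgeR adjusted p = 0.0708). The antisense transcript *Igf2os*, which overlaps *Igf2*, was listed at no more than 0.183 TMM-scaled CPM.

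*Igf1r*, through which both ligands signal, differed far more among NCD mice than between diets. Its level was 248, 39.4 and 27.1 TMM-scaled CPM on NCD and 23.4, 28.2 and 27.9 on HFD. NCD replicate 1 stood 6.30-fold above NCD replicate 2, and NCD replicate 3 lay within the HFD range. The log2 fold change was −1.98 (SE 0.855, edgeR adjusted p = 0.183) with 6 mice and −0.31 (SE 0.192, edgeR adjusted p = 0.290) with 5, so no diet difference of the receptor was called in either comparison.

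*Igfbp2*, a binding protein that adipocytes, liver and many epithelia make, showed the widest range of the family. It had 132, 13.7 and 5.65 TMM-scaled CPM on NCD and 2.04, 1.58 and 0.590 on HFD, from 4350, 819 and 304 counts and from 118, 132 and 37 counts. Every HFD mouse lay below every NCD mouse. With 6 mice the log2 fold change was −5.17 (SE 1.37, edgeR adjusted p = 0.0718), and with 5 it was −2.77 (SE 0.602, edgeR adjusted p = 0.0295), or 6.82-fold lower on HFD. The 5-mouse call was lost without NCD replicate 2 (−2.005, edgeR adjusted p = 0.155), NCD replicate 3 (−3.26, edgeR adjusted p = 0.0775) or HFD replicate 2 (−2.86, edgeR adjusted p = 0.0793).

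The NCD mice were ordered in *Igfbp2* as they were in the seminal vesicle genes and in the summed smooth muscle and epithelial markers, the latter 2 lists being present in HFD mice too. *Igfbp2* was 9.67-fold higher in NCD replicate 1 than in replicate 2, where the 11 seminal vesicle genes were 10.3–11.7-fold higher, 5 smooth muscle markers 7.38–10.8-fold and 6 epithelial markers 8.56–11.4-fold. Between NCD replicates 2 and 3 the ratio was 2.42 for *Igfbp2*, 1.45 for *Igf1r*, 4.57–5.37 for the seminal vesicle genes, 2.60–4.77 for smooth muscle and 3.76–7.39 for epithelium. The smooth muscle markers summed to 5776, 697 and 217 TMM-scaled CPM on NCD and 302, 229 and 215 on HFD. The epithelial markers summed to 1189, 120 and 28.5 on NCD and 16.9, 81.8 and 30.0 on HFD. In NCD replicate 3 the sums of both lists lay within the HFD range, and the seminal vesicle genes did not, while *Igfbp2* was above every HFD mouse. Single markers differed from the sums. In NCD replicate 3 *Myh11* (54.8 TMM-scaled CPM), *Cnn1* (15.6), *Epcam* (2.73) and *Cldn4* (1.10) were above every HFD mouse, as *Igfbp2* was. The other smooth muscle and epithelial markers were within or below the HFD range. The part of these cell types in the *Igfbp2* and *Igf1r* results was not tested.

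*Igfbp3*, the main carrier of IGFs in blood, had 60.3, 36.0 and 27.7 TMM-scaled CPM on NCD and 61.8, 41.8 and 58.8 on HFD. It was higher in every HFD mouse than in NCD replicates 2 and 3, with NCD replicate 1 among the HFD mice. The log2 fold change was 0.39 (SE 0.324, edgeR adjusted p = 0.450) with 6 mice and 0.78 (SE 0.219, edgeR adjusted p = 0.0570) with 5. The 5-mouse value passed with DESeq2 (0.77, adjusted p = 0.0119), with edgeR on total counts (0.99, adjusted p = 0.0209) and with edgeR without HFD replicate 2 (0.94, adjusted p = 0.0397).

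*Igfbp4*, which restrains IGF action until the protease PAPP-A cleaves it, had 155, 518 and 426 TMM-scaled CPM on NCD and 305, 404 and 288 on HFD. The HFD mice lay between NCD replicate 1 and the other NCD mice, as for *Igf1*. Its log2 fold change was −0.14 (SE 0.455, edgeR adjusted p = 0.857) with 6 mice and −0.49 (SE 0.206, edgeR adjusted p = 0.144) with 5. With 6 mice the sign turned under 4 alternatives, to values between 0.01 and 0.21.

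*Igfbp5*, which binds extracellular matrix, was even on NCD, at 285, 250.2 and 248 TMM-scaled CPM, and uneven on HFD, at 289, 156 and 60.9. HFD replicate 3 had the least and HFD replicate 1 as much as any NCD mouse. The evenness on NCD depended on the scale. Before TMM scaling *Igfbp5* had 141, 256 and 266 CPM in the NCD mice, and per 1000 counts of the adipocyte markers it had 71.4, 15.3 and 11.2. The log2 fold change was −0.63 (SE 0.526, edgeR adjusted p = 0.452) with 6 mice and −0.55 (SE 0.582, edgeR adjusted p = 0.530) with 5. It moved to −1.26 and −1.20 without HFD replicate 1, and to −0.21 and −0.15 without HFD replicate 3, with 6 and 5 mice before the omission. *Igfbp6*, which prefers IGF2, had 58.7, 65.2 and 42.1 on NCD and 76.5, 106 and 43.7 on HFD. Its diets overlapped through HFD replicate 3, and the log2 fold change was 0.45 (SE 0.350, edgeR adjusted p = 0.420) with 6 mice and 0.51 (SE 0.395, edgeR adjusted p = 0.396) with 5.

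*Igfbp7*, a relative that binds IGFs weakly and is known from blood vessels, had 119, 243 and 278 TMM-scaled CPM on NCD and 228, 345 and 373 on HFD. NCD replicate 1 was the lowest and HFD replicate 1 lay between it and NCD replicate 2, so the diets overlapped. The log2 fold change was 0.57 (SE 0.373, edgeR adjusted p = 0.349) with 6 mice and 0.29 (SE 0.249, edgeR adjusted p = 0.437) with 5. The protein-coding gene *Polr2b* overlaps *Igfbp7* and was at 43.2–65.7 TMM-scaled CPM. The sources used here do not say whether the counting used strand.

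Over the 9 genes, the TMM-scaled CPM of the diets did not overlap in 2 (*Igf2* and *Igfbp2*) with 6 mice. With 5 mice they did not overlap in 5, with *Igf1*, *Igf2*, *Igfbp2* and *Igfbp4* lower and *Igfbp3* higher on HFD. Among all genes tested with 6 mice, 39.2% did not overlap, 18.7% with HFD lower. With 5 mice these shares were 57.1% and 29.1%.

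**Figure D3:**
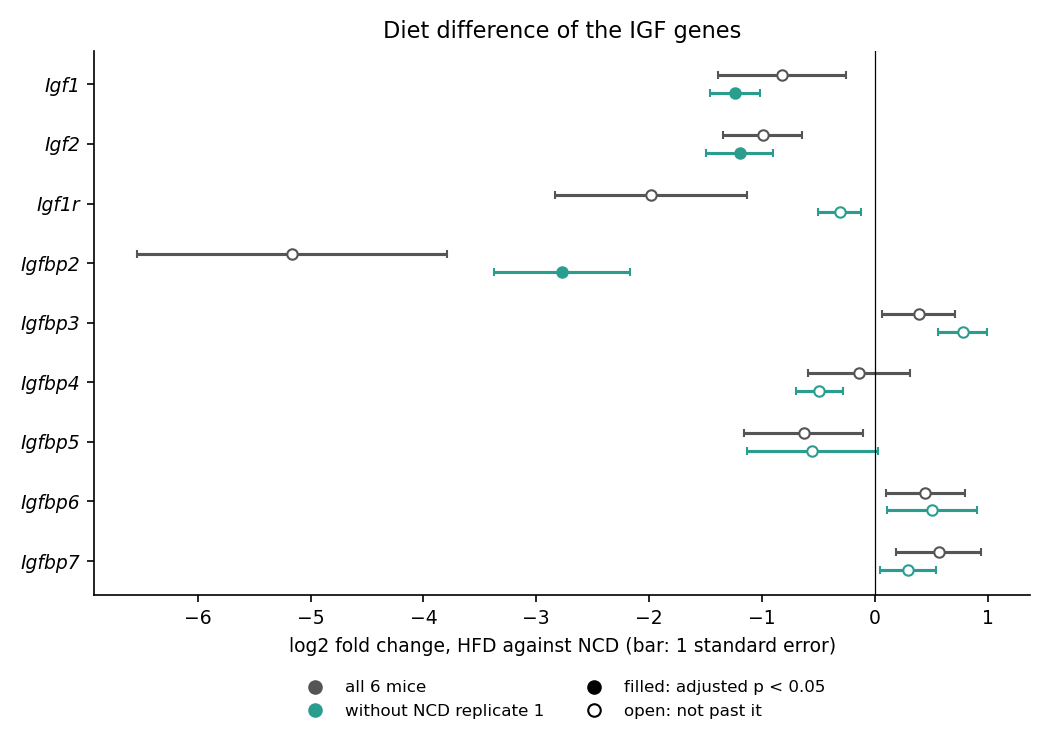
log2 fold change of each IGF gene, HFD against NCD, with bars of 1 standard error, from the edgeR fits of 6 mice (grey) and of 5 mice without NCD replicate 1 (green). Filled points passed the adjusted p threshold: 0 with 6 mice, and Igf1, Igf2 and Igfbp2 with 5 mice.

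Per kilobase of exon, *Igfbp7* was the most abundant of the 9 transcripts in all 6 mice. Its level was 176 ± 69.0 TMM-scaled CPM per kb on NCD and 261 ± 63.8 on HFD (SD, n = 3 each). *Igfbp4* followed in every mouse but NCD replicate 1, with 93.3 ± 48.2 on NCD and 84.7 ± 16.0 on HFD. On HFD the order went on with *Igfbp6* at 67.9 ± 28.2, *Igfbp5* at 28.1 ± 19.1, *Igf1* at 20.2 ± 2.77 and *Igfbp3* at 17.3 ± 3.46. Neighbours in this stretch, from *Igfbp4* to *Igfbp3*, overlapped between mice. *Igf1r*, at 2.32 ± 0.233, was below *Igfbp3* and above *Igfbp2* in every HFD mouse, and *Igfbp2* at 0.963 ± 0.509 and *Igf2* at 0.904 ± 0.164 overlapped at the bottom. On NCD the means were 49.7 ± 10.7 for *Igfbp6*, 43.5 ± 3.47 for *Igfbp5*, 35.7 ± 23.1 for *Igf1*, 34.6 ± 48.6 for *Igfbp2*, 13.2 ± 5.40 for *Igfbp3*, 9.19 ± 10.9 for *Igf1r* and 1.80 ± 0.754 for *Igf2*. All neighbours in the NCD order overlapped between mice. In NCD replicate 1 *Igfbp2* had the second highest level, and in the other NCD mice the seventh.

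As shares of the 6 IGFBP transcripts per kilobase within a library, which do not depend on scaling between libraries, *Igfbp7* took 28.3%, 44.2% and 53.4% on NCD and 46.6%, 54.4% and 68.5% on HFD. *Igfbp4* took 11.3%, 29.1% and 25.2% on NCD and 19.2%, 19.6% and 16.3% on HFD. *Igfbp2* took 26.1%, 2.07% and 0.901% on NCD and 0.347%, 0.206% and 0.0897% on HFD. Only the *Igfbp2* share separated the diets among the 6 (exact two-sided permutation p = 0.1, the smallest possible). The other 5 shares overlapped, with exact permutation p from 0.2 for *Igfbp7* to 0.8 for *Igfbp3*. Without NCD replicate 1, the mean *Igfbp2* share on HFD minus that on NCD was −1.27 percentage points in place of −9.46.

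**Figure D4:**
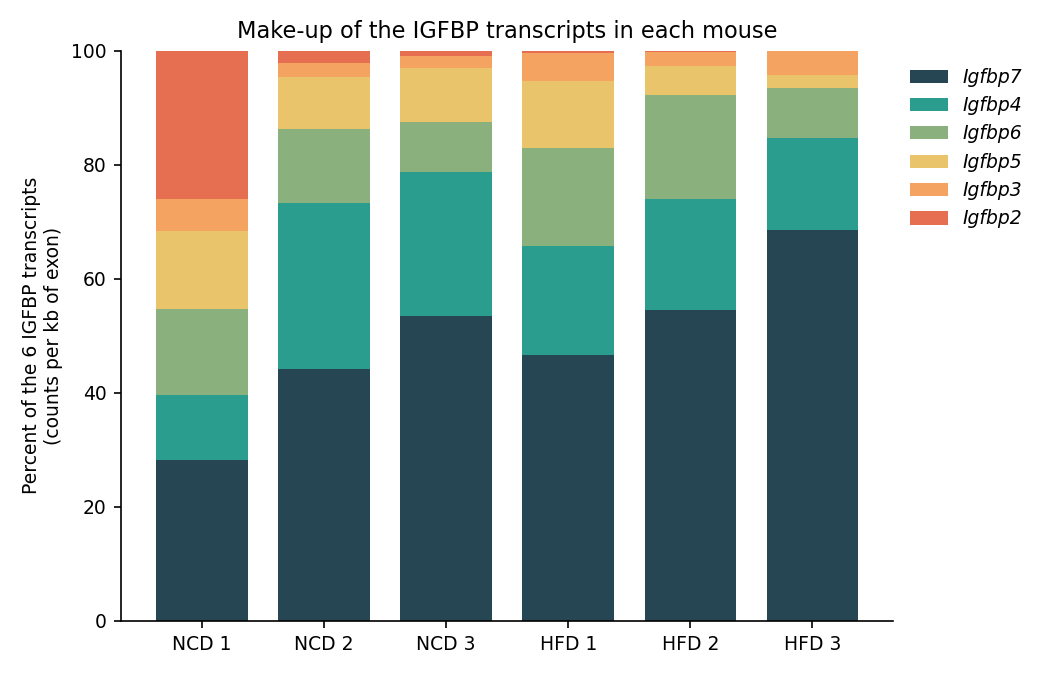
Stacked bars of the percent of the 6 IGFBP transcripts (counts per kb of exon) taken by each gene in each mouse, from 0 to 100. Igfbp7 is the largest block in every mouse, at 28.3–68.5%, and Igfbp2 is a visible block mainly in NCD replicate 1, at 26.1%.

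*Igf1* amounted to 3.11%, 8.75% and 13.1% of the summed IGFBP transcripts per kilobase on NCD and to 4.21%, 4.17% and 4.82% on HFD. NCD replicate 1 lay below the HFD mice and the other NCD mice above them. The mean log2 ratio differed by −0.69, HFD minus NCD (exact two-sided permutation p = 0.4), and by −1.29 without NCD replicate 1.

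Around these genes, 29 others of the IGF system were listed: receptors and carriers, IGFBP proteases and their inhibitors, the growth hormone axis, *Igf2* mRNA-binding proteins with *H19*, and receptor adaptors. Of these, 26 could be tested in both comparisons, and *Igfbp1*, *Igfbpl1* and *Igf2bp3* had too few counts. With 6 mice 1 fell and 0 rose. With 5 mice 2 rose (*Igf2r* and *Igf2bp2*) and 2 fell (*Igfals* and *Irs1*), against 10.7% and 10.1% of all genes tested. The median log2 fold change of the 26 was −0.22 with 6 mice and −0.07 with 5.

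*Irs1*, the docking protein that passes on signals of the insulin and IGF1 receptors, was the gene that passed in both comparisons. It had 108, 86.7 and 120.1 TMM-scaled CPM on NCD and 36.2, 48.4 and 31.1 on HFD, with NCD replicate 1 among the other NCD mice. The log2 fold change was −1.44 (SE 0.225, edgeR adjusted p = 0.0253) with 6 mice and −1.41 (SE 0.235, edgeR adjusted p = 0.0152) with 5. With 6 mice the call was lost in edgeR without NCD replicate 2 (adjusted p = 0.0649), NCD replicate 3 (0.0706), HFD replicate 1 (0.0794), HFD replicate 2 (0.0683) or HFD replicate 3 (0.107), with log2 fold changes from −1.62 to −1.29, and with total counts (−0.93, adjusted p = 0.205). With 5 it was lost without NCD replicate 2 (adjusted p = 0.0536) or NCD replicate 3 (0.102). The adaptor with the most counts, *Shc1*, had 132, 108 and 97.8 on NCD and 93.9, 109 and 96.4 on HFD, and its fold change did not pass (edgeR adjusted p = 0.528 and 0.902).

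*Igfals*, the acid-labile subunit that joins IGF and IGFBP in the circulating ternary complex, had 15.6, 91.0 and 97.2 TMM-scaled CPM on NCD and 23.3, 16.8 and 14.4 on HFD. As for *Igf1*, NCD replicate 1 was low, here within the HFD range. Its log2 fold change was −1.90 (SE 0.660, edgeR adjusted p = 0.123) with 6 mice and −2.36 (SE 0.212, edgeR adjusted p = 0.00600) with 5. A further mouse left out kept this call except NCD replicate 3 (−2.30, edgeR adjusted p = 0.0506). *Igf2r*, the receptor that clears IGF2, had 138, 77.5 and 78.3 on NCD and 248, 144 and 135 on HFD, with a log2 fold change of 0.84 (SE 0.351, edgeR adjusted p = 0.172) with 6 mice and 1.19 (SE 0.294, edgeR adjusted p = 0.0413) with 5. Its call was lost without NCD replicate 2 (1.17, edgeR adjusted p = 0.182), NCD replicate 3 (1.20, adjusted p = 0.194) or HFD replicate 2 (1.31, adjusted p = 0.0644). *Igf2bp2*, whose protein binds *Igf2* mRNA, had 3.84, 13.7 and 13.4 on NCD and 42.4, 21.7 and 26.6 on HFD. It did not pass with 6 mice (log2 fold change 1.55, SE 0.528, edgeR adjusted p = 0.118) and rose with 5 (1.17, SE 0.301, edgeR adjusted p = 0.0455). That call was lost without NCD replicate 2 (1.17, edgeR adjusted p = 0.185), NCD replicate 3 (1.17, adjusted p = 0.206) or HFD replicate 3 (1.25, adjusted p = 0.0794), and with median-of-ratios scaling (1.16, adjusted p = 0.0501).

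In the growth hormone axis, upstream of *Igf1*, 0 of 7 genes passed in either comparison. The growth hormone receptor *Ghr* had 354, 1562 and 817 TMM-scaled CPM on NCD and 475, 406 and 801 on HFD, with a log2 fold change of −0.70 (SE 0.582, edgeR adjusted p = 0.450) with 6 mice and −1.07 (SE 0.408, edgeR adjusted p = 0.118) with 5. Among 6 IGFBP proteases and their inhibitors 0 passed in either comparison. The one with the most counts, *Htra3*, a secreted serine protease, had 55.2, 175 and 224 on NCD and 410, 356 and 235 on HFD. The diets did not overlap, as in 39.2% of all genes tested with 6 mice. Its log2 fold change was 1.14 (SE 0.527, edgeR adjusted p = 0.207) with 6 mice and 0.75 (SE 0.273, edgeR adjusted p = 0.104) with 5. The insulin receptor *Insr*, the most highly counted gene of the list of receptors and carriers, had 123, 170.1 and 183 on NCD and 127, 147 and 143 on HFD and did not pass (edgeR adjusted p = 0.547 and 0.125).

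**Figure D5:**
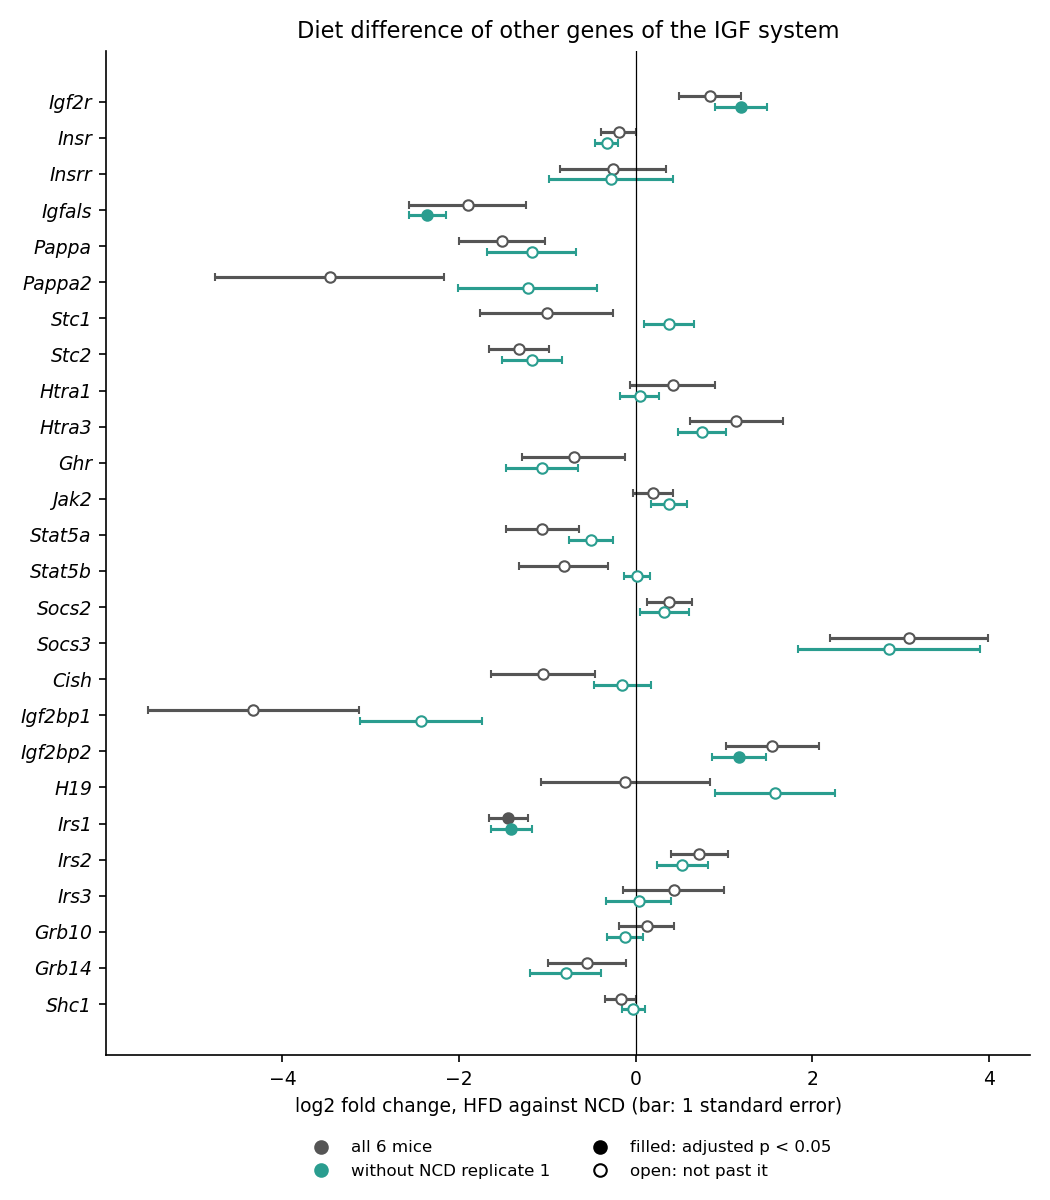
log2 fold change of 26 other genes of the IGF system, HFD against NCD, with bars of 1 standard error, with 6 mice (grey) and with 5 mice without NCD replicate 1 (green). Filled points passed the adjusted p threshold: Irs1 in both fits, and Igfals, Igf2r and Igf2bp2 with 5 mice.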

How the data were processed

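RNA-seq counts of gWAT were analysed from 3 NCD and 3 HFD mice, grouped by the sample labels, which call them biological replicates, so p-values measure the spread between these mice. The authors deposited raw read counts per gene for 19790 NCBI gene identifiers, without normalization, and 0 columns lacked a sample. Replicate numbers follow the sample titles. The count column of HFD replicate 3 bears a different number from its title. Per the submitters' processing notes, bcl2fastq 2.20.0, Trimmomatic, HISAT2 2.1.0, StringTie 1.3.4d and DESeq2 were used and the builds named are mm10 and GRCm38. No role or setting of a tool, and no use of strand in counting, is given in the sources consulted. Symbols (19742 identifiers) and promoter windows came from RefSeq's annotation of GRCm38.p6, and exon lengths (17794 genes) from GENCODE vM21, leaving 1.05% of counts without a length.

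In edgeR 4.0.16 under R 4.3.3, filterByExpr kept genes (with a minimum count of 10 and a total of 15), TMM set the scale, and the quasi-likelihood F test (glmQLFTest after glmQLFit) compared the diets. P-values were adjusted by Benjamini-Hochberg over every gene kept, at a threshold of 0.05. The SE was computed as |log2 fold change| over the root of F. TMM factors were 0.496 for NCD replicate 1 and 1.02–1.27 for the others. Ratios within a library were compared by exact two-sided permutation. The procedure was tested on simulated counts with known fold changes. All simulated libraries came from a common mean profile, so the test did not cover differences in seminal vesicle RNA between libraries. Depth was 49575113–66360046 counts per library, a single count being worth 0.0151–0.0202 CPM, so the spread between mice rather than counting error limits most values. No library was a duplicate, since chi-square between replicates was 111–3438 per degree of freedom.

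The members and the gene lists were chosen with earlier results of these data known. All 9 IGF genes are named, and of the other lists the genes that passed with 6 or 5 mice and the most highly counted gene of each. For each IGF gene the 2 nearest profiles are named, by root-mean-square difference of log2(TMM-scaled CPM + 1), centred per gene, among genes with a mean of at least 5. Alternatives were other filters on low counts, other scaling, removal of seminal vesicle genes, DESeq2 1.42.0, limma 3.58.1 on log2(CPM + 1), the replicate number as a block and each mouse left out. Ratios to marker lists, and the alternatives on 5 mice other than DESeq2, were chosen after seeing the data. Protein sequences were not used here.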

Additional observations from a re-analysis of the deposited data

How the results depend on the processing

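With 6 mice, 1139 genes passed in all. DESeq2 gave 3853, DESeq2 on 5 mice 5118 and the replicate block 12, and leaving out a mouse gave 2–3234, the highest without NCD replicate 1 and 2 without NCD replicate 2, NCD replicate 3 or HFD replicate 1. Of the calls, 74.6% were rises, against 54.5% with DESeq2, 52.8% with DESeq2 on 5 mice and 51.5% with edgeR on 5 mice. Total-count scaling moved the median log2 fold change of all genes from −0.08 to 0.44. With 5 mice, 3234 genes passed, DESeq2 gave 5118 and leaving out a further mouse 207–3865 (529 without NCD replicate 2, 207 without NCD replicate 3, 1712 without HFD replicate 2 and 1912 without HFD replicate 3), and total counts moved the share that were higher from 51.5% to 72.7% and the median from 0.02 to 0.23. The cause of these differences was not tested.

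Of the IGF genes with 6 mice, 1 was called lower with total counts (*Igfbp2*, −4.07, adjusted p = 0.0446) and 1 with DESeq2 (*Igfbp2*, −5.14, adjusted p = 1.75e-05), and the count without each mouse was 0–3 lower and 0 higher. DESeq2 on 5 mice called 3 lower (*Igf1* −1.25, adjusted p = 1.2e-06, *Igf2* −1.20, adjusted p = 0.00273, and *Igfbp2* −2.77, adjusted p = 7.27e-05) and 1 higher (*Igfbp3* 0.77, adjusted p = 0.0119). Over all genes DESeq2 on 5 mice called 2416 lower and 2702 higher, of 18882. With 6 mice, total counts called 211 of 15241 genes lower and DESeq2 1753 of 19056. Over the edgeR fits that left out a mouse, log2 fold changes ranged from −1.24 to −0.31 for *Igf1*, −1.19 to −0.61 for *Igf2* and −5.67 to −2.77 for *Igfbp2*. *Igfbp4* reversed to 0.21 with total counts, 0.019 with limma, 0.011 with the replicate block and 0.19 without NCD replicate 2 (its range without each mouse was −0.49 to 0.19). The block ended the call of *Irs1* (−1.45, adjusted p = 0.0838) and changed no call of the 9 IGF genes. Deviations of same-numbered mice correlated at −0.05, −0.02 and −0.02, and those of differently numbered mice at −0.06 to 0.07. With so few mice these values cannot settle whether the numbers pair them.

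With 5 mice, total counts gave *Igfbp3* 0.99 (adjusted p = 0.0209), so 1 higher (beside 2544 of 15510 genes), and *Igf2* −0.97 (adjusted p = 0.0708). With a further mouse left out, the count was 0–2 lower and 0–1 higher, with 0 lower without NCD replicate 2, NCD replicate 3 or HFD replicate 2. In these fits *Igf1* lost its call at −1.48, −0.95 and −1.30 without NCD replicate 2, NCD replicate 3 and HFD replicate 2, and *Igfbp2* at −2.005, −3.26 and −2.86 without the same mice. *Igf2* lost its call in all 5, at −0.76, −1.53, −1.07, −1.25 and −1.30 without NCD replicates 2 and 3 and HFD replicates 1, 2 and 3, and *Igfbp3* gained one at 0.94 without HFD replicate 2. The difference in the share of *Igfbp3* among IGFBP transcripts, HFD minus NCD, ranged from −0.17 to 1.57 percentage points without each mouse. It turned at −0.17 without NCD replicate 3 and at −0.020 without HFD replicate 1. The same difference for *Igfbp4* ranged from −8.78 to 0.11, turning at 0.11 without NCD replicate 2. With 1 mouse fewer in the 5-mouse comparison a diet can be left with a single mouse, which is then assumed to vary like the others.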

Other observations

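The genes whose profiles over the 6 libraries lay nearest to those of the IGF genes are given as a description, among 11393 genes compared, with the root-mean-square difference on the log2 scale. All genes were measured in the same libraries, which differ in composition as described above. Nearest to *Igf1* were *Serpina3c* (0.105), a serine protease inhibitor, and *Myl1* (0.113), a myosin light chain. *Serpina3c* had 56.5, 194 and 332 TMM-scaled CPM on NCD and 97.6, 133 and 119.6 on HFD, low in NCD replicate 1 as *Igf1* was. Nearest to *Igfbp2* were *Stard10* (0.133), a lipid transfer protein, and *Acta1* (0.211), the skeletal muscle actin. *Stard10* had 162, 17.6 and 5.62 on NCD and 2.53, 2.19 and 1.12 on HFD, and *Acta1* had 381, 38.8 and 11.8 on NCD and 7.07, 4.40 and 2.63 on HFD, both highest in NCD replicate 1.

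Nearest to *Igf1r* were *Miga1* (0.0578) and *2310001H17Rik* (0.118). *Miga1* had 61.6 TMM-scaled CPM in NCD replicate 1 and 5.86–9.20 in the other 5 mice. Nearest to *Igf2* were *Mapk6* (0.143) and *Dcun1d3* (0.164), and nearest to *Igfbp3* were *Tex9* (0.0936) and *Prkcb* (0.0975). *Igfbp4* lay nearest to *Cd209g* (0.0976) and *Dipk2a* (0.106), *Igfbp5* to *Lama2* (0.215) and *Abca6* (0.218), *Igfbp6* to *Sh2d4a* (0.174) and *Antxr1* (0.180), and *Igfbp7* to *Fam102b* (0.0759) and *Epha2* (0.0827). Among the 9 IGF genes themselves the nearest pair was *Igf1* and *Igfbp4* (0.425), followed by *Igfbp4* and *Igfbp7* (0.438).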
